A study of Mus musculus with 9 samples.

Results

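The mitochondrial ribosomal protein genes are the nuclear genes whose symbols begin with Mrpl or Mrps followed by a number, for the large and small subunit of the ribosome inside mitochondria. They were chosen by symbol alone, and pseudogene names were left out. The table held 78 of them among 17314 genes, 49 with a large subunit name and 29 with a small subunit name, and all 78 were among the 13044 genes that passed the filter on low counts. The RNA came from gastrocnemius, the calf muscle, of mice aged 6, 15 and 21 months. Each age had 3 mice and 1 library per mouse, and every library was one of messenger RNA selected on oligo(dT) beads. The labels name age and tissue only, and neither strain nor sex nor any treatment is stated in them. The study's title is about muscle ageing in relation to thyroid hormone receptor alpha, and the comparisons ask how these genes stood at 21 against 6 months, 15 against 6 months and 21 against 15 months.

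The mitochondrial ribosome translates the few messenger RNAs that mitochondrial DNA encodes, all of which make core subunits of the respiratory chain and ATP synthase. Its ribosomal RNAs come from mitochondrial DNA, while every one of its proteins is encoded in the nucleus, made in the cytosol and imported. Some of these proteins descend from the bacterial ancestor of mitochondria, and others were added later and are found only in mitochondria. Skeletal muscle fibres differ in mitochondrial content, slow and fast oxidative fibres holding more than fast glycolytic ones. The symbols do not always match the place of the protein: in the structure of the mammalian ribosome Mrps30 and Mrps18a belong to the large subunit, and Mrps36 is a component of the 2-oxoglutarate dehydrogenase complex and no ribosomal protein. By structure, the 78 genes therefore comprised 51 large subunit genes, 26 small subunit genes and Mrps36. Of the 77 ribosomal ones, 46 are classed here as having a bacterial homologue and 31 as specific to mitochondria. The classes match the systematic names of the proteins and not descent in every case. Mrps18a and Mrps18b are in the second class, although Mrps18c of the same family is in the first.

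Promoter sequences were available for 69 of the 78 genes in a RefSeq table (build GRCm38.p6) that gives 300 bases per start site, 250 before and 50 after it. Motifs of transcription factors known for nuclear mitochondrial genes were searched on both strands. The motif of nuclear respiratory factor 1 (NRF1, searched as GCGCANGCG) stood in 16 of the 69 genes (23.2%), against 14.8% of the 10375 tested genes with a promoter and 7.03% of all 27025 genes of the table. The motif of ETS factors such as GABP, also called nuclear respiratory factor 2 (searched as CCGGAAG), stood in 26 genes (37.7%), against 19.3% and 9.93%. The motif of YY1 (searched as AAGATGGC) stood in 12 genes (17.4%), against 5.09% and 3.19%. At least 1 of these 3 motifs stood in 44 of the 69 genes (63.8%), against 33.8% of the tested genes and 17.8% of all genes. The E-box CACGTG, which MYC and other factors bind, stood in 5 genes (7.25%), against 11.6% and 8.09%. The motif of the oestrogen-related receptors (TCAAGGTCA) and the DR4 arrangement of a thyroid hormone receptor element were found in 0 of the 69 genes, against 0.318% and 0% of the tested genes. The median base composition of the windows was 58.7% G and C for the mitochondrial ribosomal protein genes and 52.7% for the whole table. These shares are descriptions of letters in a window, with no test, and the part of base composition in them was not tested.

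**Figure D1:**
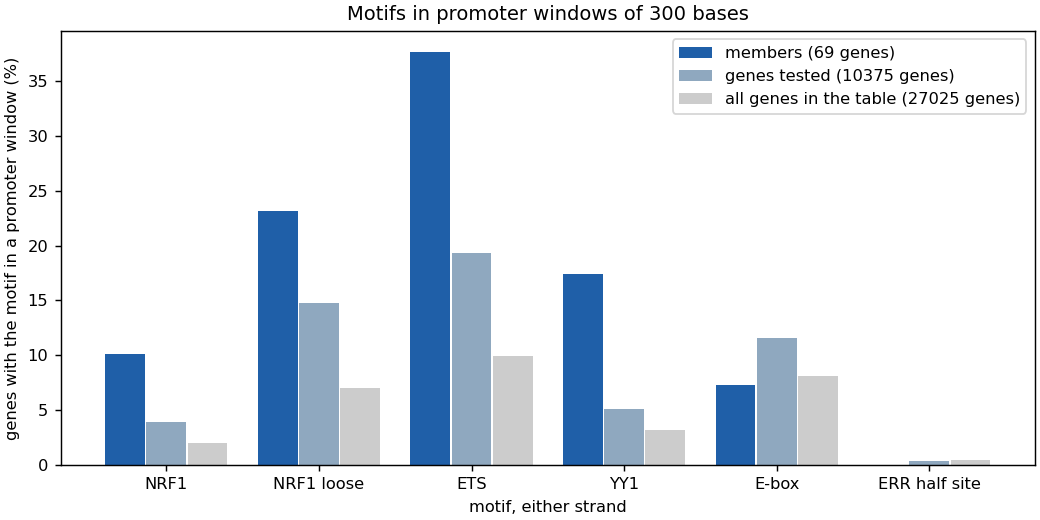
Share of genes (%, vertical axis) with each motif on either strand of a promoter window of 300 bases, for the 69 mitochondrial ribosomal protein genes, the 10375 tested genes and all 27025 genes of the RefSeq table. The share of the 69 genes is the highest of the 3 bars for NRF1, ETS and YY1 (10.1% for the exact NRF1 letters GCGCATGCG, 23.2% for the loose form GCGCANGCG, 37.7% and 17.4%) and not for the E-box (7.25%) or the motif of the oestrogen-related receptors (ERR, 0%).

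NRF1 and ETS motifs stood together in 6 of the 69 genes (8.70%), against 3.38% of the tested genes: Mrps26, Mrpl17, Mrpl22, Mrps21, Mrps18b and Mrpl57. The 250 bases before the start of 3 of them are shown, from RefSeq (GRCm38.p6) and 5′ to 3′, to let the arrangement of the motifs be seen. Capitals mark NRF1 and ETS motifs on either strand, so that an ETS motif of the other strand reads CTTCCGG.
Mrpl17, chr7:105811088-105811337, minus strand: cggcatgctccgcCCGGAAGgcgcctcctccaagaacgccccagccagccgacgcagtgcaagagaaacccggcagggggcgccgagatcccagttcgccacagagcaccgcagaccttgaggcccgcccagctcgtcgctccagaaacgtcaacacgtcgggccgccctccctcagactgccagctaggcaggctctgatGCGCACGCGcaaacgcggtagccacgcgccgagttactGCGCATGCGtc
Mrpl22, chr11:58171414-58171663, plus strand: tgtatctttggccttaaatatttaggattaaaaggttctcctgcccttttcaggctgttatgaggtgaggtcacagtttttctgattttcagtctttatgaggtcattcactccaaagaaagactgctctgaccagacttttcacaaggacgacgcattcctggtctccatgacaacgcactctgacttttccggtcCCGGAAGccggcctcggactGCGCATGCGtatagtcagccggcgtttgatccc
Mrps26, chr2:130563507-130563756, plus strand: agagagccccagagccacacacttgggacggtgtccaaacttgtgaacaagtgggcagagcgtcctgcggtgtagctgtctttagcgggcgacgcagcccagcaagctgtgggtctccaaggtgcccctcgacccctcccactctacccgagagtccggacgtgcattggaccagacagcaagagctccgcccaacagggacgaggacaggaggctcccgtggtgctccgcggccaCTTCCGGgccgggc
In Mrpl17 the ETS motif began 237 bases before the start site and the NRF1 motifs 49 and 11 bases before it. In Mrpl22 the ETS and NRF1 motifs began 53 and 33 bases before the start site. In Mrps26 the ETS motif began 14 bases before the start site, and an NRF1 motif began 2 bases before it and ran past the stretch shown. The same genes had these levels in CPM (counts scaled to library size with TMM factors): Mrpl17 stood at 34.4 ± 1.14, 35.6 ± 2.57 and 36.0 ± 1.32 CPM in 6-, 15- and 21-month mice (SD, n = 3 each), with the lowest ratio of the highest to the lowest library of all 78 genes. Mrpl22 stood at 16.7 ± 2.39, 18.7 ± 1.57 and 17.5 ± 1.25 CPM, and Mrps26 at 16.4 ± 1.38, 17 ± 0.764 and 15.2 ± 0.969 CPM, in the same order of ages.

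The genes lay on 17 chromosomes, with 11 on chromosome 11 and 8 on chromosome 17, in a GENCODE annotation (release M21) of the same build. A protein-coding gene of the opposite strand started within 1000 bases of the start of 33 of the 78 genes (42.3%), against 1974 of 12815 tested protein-coding genes (15.4%). Some of these neighbours also work in mitochondria and are named below as examples. Their share was not counted, neither among the 33 nor among all genes. Mrpl46, a large subunit gene, and Mrps11, a small subunit gene, lie head to head on opposite strands of chromosome 7. Their starts are 412 bases apart, each inside the span of the other gene, and their exons share no bases. Mrpl46 had 16.2, 15.7 and 16.3 CPM in 6-month mice, 19.8, 18.9 and 17 CPM in 15-month mice and 15.6, 15.0 and 20.8 CPM in 21-month mice. Mrps11 had 19.1, 16.5 and 15.9 CPM in 6-month mice, 16.5, 17.1 and 17.5 CPM in 15-month mice and 14.8, 13.5 and 17.8 CPM in 21-month mice. Of this pair Mrpl46 was without overlap between 15 and 6 months and Mrps11 was not (log2 fold change 0.21, SE 0.13, against -0.01, SE 0.12, for Mrps11), and the difference between the genes was not tested. Mrps12, whose protein lines the decoding centre of the small subunit, started 172 bases from Sars2, the mitochondrial seryl-tRNA synthetase. Mrpl43 started 779 bases from Twnk, the helicase of mitochondrial DNA. Mrpl36 started 29 bases from Ndufs6 and Mrpl47 started 615 bases from Ndufb5, both of which encode complex I subunits. Other neighbours included Tcp1, a cytosolic chaperonin subunit, 644 bases from Mrpl18, and Psma2, a proteasome subunit, 75 bases from Mrpl32.

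Exons of 26 of the 78 genes shared bases with exons of another gene, on the opposite strand in 22 and on the same strand in 5. The use of strand in counting is unknown here, and reads of such stretches could belong to either gene. The overlap was longest in Mrps25, which shared 3533 bases with Nr2c2, followed by Mrpl19, which shared 1962 bases with Gcfc2. Mrpl53 shared 695 bases on the same strand, as many as its annotated transcript has. Counting by strand would not separate reads of that stretch. Estimated counts were not whole in at least 1 library for 10 of the 78 genes, against 14.5% of all genes, and in all 9 libraries for Mrpl19, Mrpl24, Mrpl39, Mrpl43 and Mrps25. The values of those 5 genes are less certain than whole counts.

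Total counts ranged from 15354396 to 17317856 per library, and the lowest count of any of the 78 genes in any library was 153. Muscle genes such as Ttn and Ckm were abundant throughout: the summed level of 6 muscle markers, none at 0, ran from 59458 to 64406 CPM in 6-month, from 48562 to 60748 CPM in 15-month and from 50255 to 53645 CPM in 21-month mice, with no overlap between 21 and 6 months. In the same order of ages 5 fibroblast markers summed to 1169 to 1658, 1083 to 1228 and 1122 to 1238 CPM, and 10 macrophage markers to 182 to 282, 94.5 to 210 and 121 to 197 CPM, none of them at 0 in every library and with overlap between ages. The part of these markers in the results on the 78 genes was not tested. The libraries differed in fibre type markers within an age and between ages. The summed level of 12 slow fibre markers, all 12 of which were tested and none at 0, was 343, 112 and 248 CPM in mice 1, 2 and 3 at 6 months, 1317, 699 and 418 CPM at 15 months and 294, 394 and 1196 CPM at 21 months. In this sum every 15-month mouse was above every 6-month mouse, while 21 months overlapped with both. The log2 fold change was above 0 in 12 of 12 slow fibre markers in both comparisons with 6 months. In 10 fast fibre markers it was below 0 in 9 and above 0 in 1 in both. Of all genes 48.6% and 48.0% were above 0 at 15 and 21 against 6 months. The part of fibre type in the results was not tested. Myh2, a myosin heavy chain of fast oxidative fibres, had 1611, 0.755 and 530.0 CPM in 6-month mice, 4395, 2825 and 834 CPM in 15-month mice and 1267, 967 and 3642 CPM in 21-month mice. Mouse 2 at 6 months, mouse 1 at 15 months and mouse 3 at 21 months lay farthest out on the first principal component of all genes, which held 35.2% of the variance, and results are given with and without them. In whole muscle, fewer cells of a type and less RNA per cell cannot be told apart.

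The levels of the 78 genes differed widely between genes and little between libraries. Mean levels ran from 10.4 CPM for Mrpl52 to 178 CPM for Mrpl42, with a median of 33.7 CPM. Genes are compared with each other per kilobase of the annotated transcript (CPM per kb), since longer transcripts give more reads, and transcripts ranged from 418 to 7300 bases. The median was 24.9 CPM per kb for large subunit names and 22.6 CPM per kb for small subunit names. Mrpl42, a protein of the large subunit specific to mitochondria, was the highest of all at 267 CPM per kb. It was followed among large subunit names by the conserved proteins Mrpl30 at 110.0 and Mrpl33 at 104, and by Mrpl18, a protein of the central protuberance, at 72.2 CPM per kb. Among small subunit names Mrps21, which has a bacterial homologue, was the highest at 147 CPM per kb, followed by Mrps36 at 59.7, Mrps23 at 57.8 and Mrps18a at 49.0 CPM per kb. Mrpl19 at 4.46 and Mrps35 at 3.46 CPM per kb were the lowest of the large and small names. The annotated transcripts of Mrpl17 and Mrpl19 are among the longest of the 78 (7300 and 5000 bases), and the value per kilobase depends on the transcript that was taken.

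The 4 highest large subunit names and the 3 highest small subunit names were the same at each age. Mrpl42 stood at 280.4, 277 and 243 CPM per kb at 6, 15 and 21 months, Mrpl30 at 109, 114 and 106, Mrpl33 at 99.8, 104 and 107 and Mrpl18 at 67.0, 78.9 and 70.8 CPM per kb. Mrpl42 lay above all the others in each of the 9 libraries. Mrpl30 and Mrpl33 overlapped between libraries and did not differ beyond the spread between mice. Mrps21 stood at 146, 153 and 141 CPM per kb at the 3 ages, above every other small subunit name in each library, while Mrps36 at 63.3, 62.4 and 53.5 and Mrps23 at 56.5, 60.8 and 56.1 CPM per kb overlapped.

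**Figure D2:**
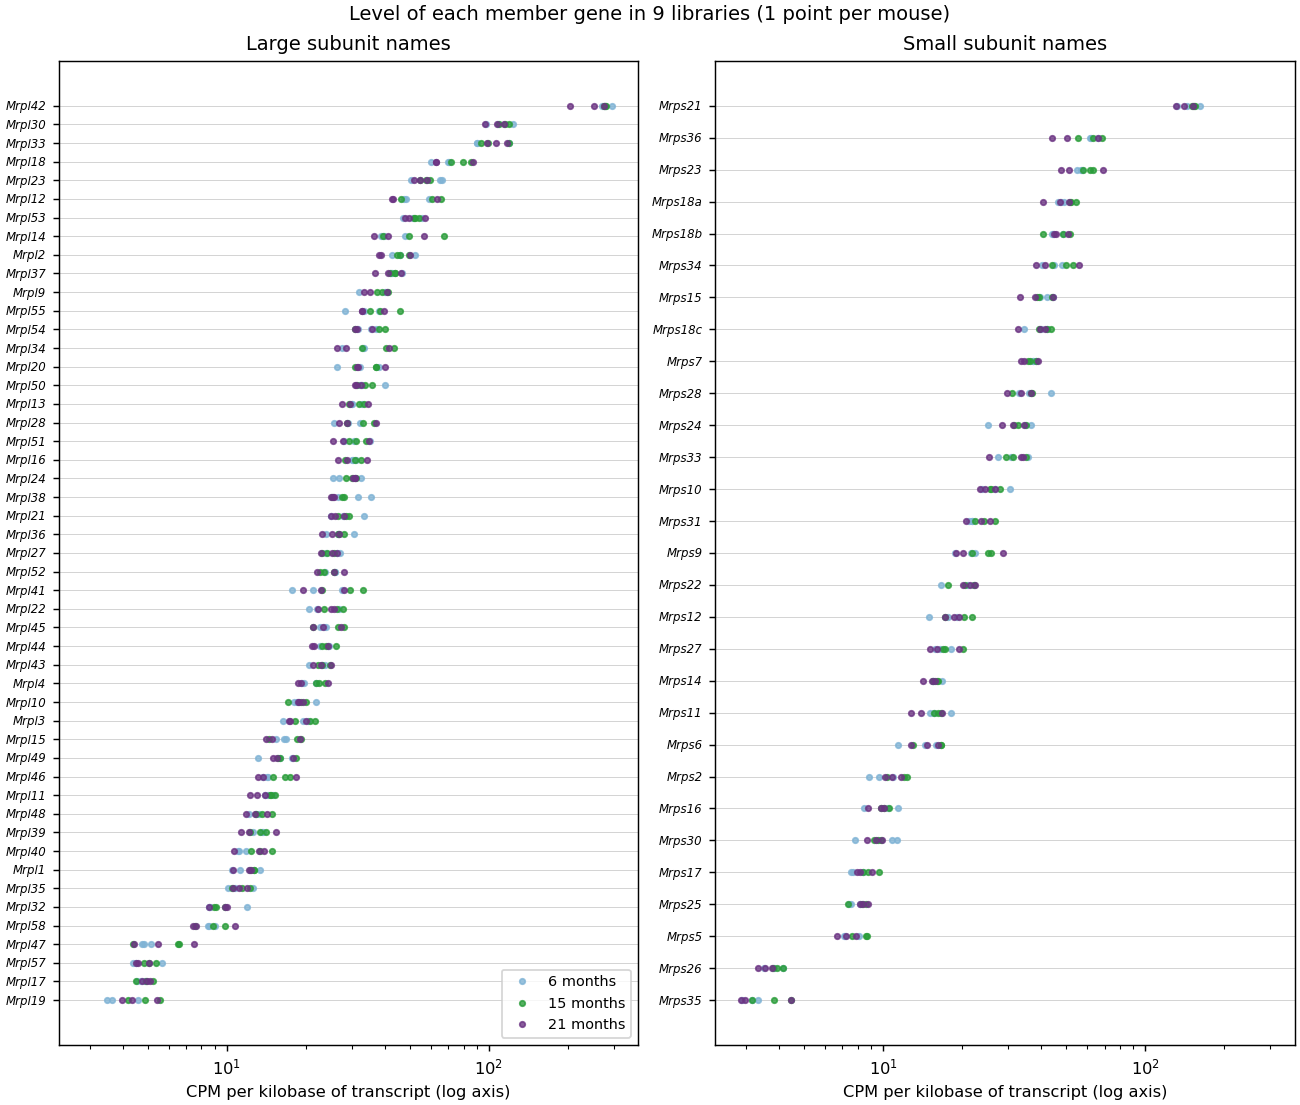
Level of each mitochondrial ribosomal protein gene per kilobase of transcript (horizontal log axis, CPM per kb), with 1 point per mouse coloured by age, large subunit names on the left and small subunit names on the right. Genes spread from 3.46 CPM per kb for Mrps35 to 267 CPM per kb for Mrpl42 (means of 9 libraries), while the 9 points of a gene lie close together.

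Summed over genes, the level at 21 months was close to that at 6 months, and the spread between mice was widest at 21 months. The 49 genes with a large subunit name summed to 2113, 2160 and 1985 CPM in the 3 mice at 6 months, to 2283, 2223 and 2033 CPM at 15 months and to 1951, 1869 and 2282 CPM at 21 months. The 29 genes with a small subunit name summed to 1035, 1054 and 982 CPM at 6 months, to 1102, 1088 and 1026 CPM at 15 months and to 968, 937 and 1123 CPM at 21 months. The ages overlapped in both sums: mice 1 and 2 at 21 months were the lowest 2 of the 9, and mouse 3 at 21 months was near the level of mouse 1 at 15 months. The sums of large and small subunit names had the same order of mice within each age. In all 78 genes together the sum averaged 3110 ± 128 CPM in 6-month, 3252 ± 171 CPM in 15-month and 3043 ± 317 CPM in 21-month mice (SD over 3 mice).

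**Figure D3:**
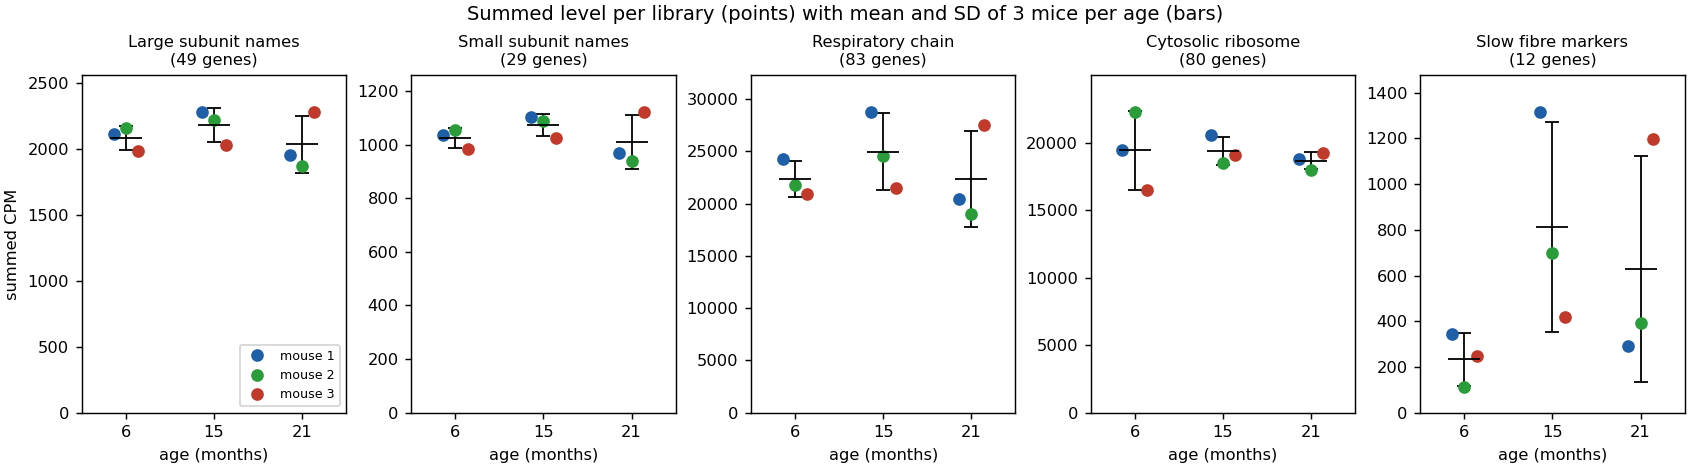
Summed CPM (vertical axes, from 0) per library by age (months) for large and small subunit names, respiratory chain subunits, cytosolic ribosomal proteins and slow fibre markers, with 1 point per mouse and bars for the mean and SD of 3 mice. Mouse 3 at 21 months is the highest of its age in the large (2282), small (1123), respiratory chain (27563) and slow fibre (1196) sums.

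At 21 against 6 months, 0 of the 78 genes passed the threshold of adjusted p under 0.05 (edgeR quasi-likelihood test over all genes, Benjamini-Hochberg), against 0.0153% of all genes tested. At an unadjusted p under 0.05 there was 1 gene, Mrpl38, or 1.28%, against 10.6% of all genes, and DESeq2 called 0 of the 78 against 1.41% of the genes it gave an adjusted p. The log2 fold change (21 over 6 months) was above 0 in 36 genes and below 0 in 42, against 48.0% and 52.0% of all genes. Its median was -0.02 over the 78 genes, -0.02 over large and -0.03 over small subunit names, and -0.01 over all genes, with a range from -0.30 for Mrpl38 to 0.24 for Mrpl47. With total count scaling the median of all genes moved to 0.07 and that of the 78 genes to 0.06, so the sign of the group's median depends on the scaling. The counts were then 59 above and 19 below 0. The count below 0 was held down by 1 library: without mouse 3 at 21 months it rose from 42 to 65 of 78. The median was then -0.10, with 5 genes at an unadjusted p under 0.05 (6.41%, against 9.94% of all genes). The groups did not overlap in 1 gene, Mrpl38, which was lower at 21 months (1.28%, against 8.30% of all genes), and in 0 genes that were higher (against 7.83%).

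Mrpl38 (Entrez ID 60441, chr11:116131817-116138868, GRCm38, minus strand) encodes a large subunit protein of the central protuberance that is specific to mitochondria. It stood at 35.9, 35.2 and 36.3 CPM in the 3 mice at 21 months and 44.5, 50.2 and 37.5 CPM in 6-month mice. Every 21-month mouse was below every 6-month mouse, and the older ones differed among themselves by far less than the younger ones did. The log2 fold change was -0.30 (SE 0.11, 95% interval -0.55 to -0.05, edgeR adjusted p = 0.370), so the difference did not pass the threshold. At 15 months it stood at 39.5, 38.8 and 35.4 CPM, with a log2 fold change of -0.22 over 6 months (SE 0.11, edgeR adjusted p = 0.541). It was the only one of the 78 genes among the 4 smallest p-values of both comparisons with 6 months, which share the 6-month mice.

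The next smallest p-values at 21 against 6 months belonged to Mrpl42, Mrps36 and Mrpl11. Mrpl42 (Entrez ID 67270, chr10:95480805-95501940, minus strand) stood at 167, 136 and 183 CPM in 21-month mice and 185, 196 and 179 CPM in 6-month mice, a log2 fold change of -0.20 (SE 0.11, edgeR adjusted p = 0.553). Mouse 2 at 21 months was far below the others, and mouse 3 lay within the 6-month range. Mrps36 stood at 35.4, 31.0 and 46.1 CPM in 21-month mice and 46.3, 43.3 and 43.5 CPM in 6-month mice (log2 fold change -0.24, SE 0.14, edgeR adjusted p = 0.575). Mice 1 and 2 at 21 months lay below every 6-month mouse and mouse 3 did not. Mrpl11 (chr19:4962147-4966999), whose protein sits at the base of the stalk where translation factors bind, stood at 39.5, 37.4 and 42.7 CPM in 21-month mice and 43.7, 45.8 and 42.7 CPM in 6-month mice. Its groups met at 42.7 CPM, the highest of the older and the lowest of the younger mice to 3 digits, and its log2 fold change was -0.14 (SE 0.08, edgeR adjusted p = 0.575).

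At 15 against 6 months, 0 of the 78 genes passed adjusted p under 0.05 (edgeR, against 0.00767% of all genes), 0 had an unadjusted p under 0.05 (against 10.3%) and DESeq2 called 0 (against 0.791%). More of the genes leaned to higher than to lower values: the log2 fold change was above 0 in 59 genes and below 0 in 19, against 48.6% and 51.4% of all genes. The median was 0.06 over large subunit names, 0.06 over small subunit names and -0.01 over all genes, with a range from -0.22 for Mrpl38 to 0.36 for Mrpl41. With total count scaling the counts were 75 above and 3 below 0, with the median of all genes at 0.07 and that of the 78 genes at 0.14. Leaving out 1 library at a time left between 49 and 63 genes above 0. The groups did not overlap in 7 genes that were higher at 15 months (8.97%, against 6.63% of all genes) and in 0 that were lower (against 7.15%), so the share was near that of all genes. Those 7 were Mrps17, Mrpl40, Mrpl46, Mrps31, Mrps18a, Mrps23 and Mrpl18.

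Mrps2, a conserved protein of the small subunit, had the smallest p of this comparison. It stood at 21.6, 25.6 and 25.0 CPM in 15-month mice and 20.0, 18.3 and 22.8 CPM in 6-month mice, a log2 fold change of 0.24 (SE 0.11, edgeR adjusted p = 0.506). Mouse 1 at 15 months lay inside the 6-month range, so the groups overlapped. Mrpl40 (chr16:18872018-18876862, minus strand), a mitochondria-specific protein of the large subunit, stood at 17.2, 19.1 and 15.8 CPM in 15-month mice and 14.1, 14.2 and 15.1 CPM in 6-month mice, with no overlap (log2 fold change 0.26, SE 0.12, edgeR adjusted p = 0.512). The mouse lowest at 15 months was above the highest 6-month mouse by less than 1 CPM. Mrpl19 stood at 24.3, 27.7 and 21.0 CPM in 15-month mice and 18.3, 17.5 and 23.0 CPM in 6-month mice (log2 fold change 0.31, SE 0.16, edgeR adjusted p = 0.530). Its groups overlapped through mouse 3 of each age, and its counts carry the doubt given above.

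At 21 against 15 months, 0 of the 78 genes passed adjusted p under 0.05 (edgeR), against 0.00% of all genes. At an unadjusted p under 0.05 there were 0 (against 1.82%), and DESeq2 called 0 (against 0.0174%). Most genes were lower at 21 months by a small amount: the log2 fold change was below 0 in 68 genes and above 0 in 10, against 50.8% and 49.2% of all genes. Its median was -0.09 over large and over small subunit names and 0.00 over all genes, with a range from -0.28 for Mrpl41 to 0.08 for Mrps22. It was also below 0 in 82 of 83 respiratory chain genes and 68 of 80 cytosolic ribosomal protein genes. The genes share the same libraries and are not replicates, so such counts are descriptions, here and in the other comparisons. The groups did not overlap in 4 genes that were lower at 21 months, Mrps26, Mrpl11, Mrps18a and Mrpl42 (5.13%, against 3.31% of all genes), and in 0 that were higher (against 2.84%). Under every alternative run, between 56 and 72 of the 78 genes were below 0. Without mouse 3 at 21 months, 15 genes had an unadjusted p under 0.05 (19.2%, against 5.40% of all genes), all 15 lower at 21 months, and 0 passed adjusted p under 0.05 in edgeR.

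The smallest p-values of this comparison belonged to Mrpl11, Mrps5, Mrps18a and Mrpl42. Mrpl11 stood at 39.5, 37.4 and 42.7 CPM in 21-month mice and 45.1, 46.7 and 44.4 CPM in 15-month mice, a log2 fold change of -0.19 (SE 0.08, unadjusted p = 0.0525, edgeR adjusted p = 1). No 21-month mouse reached the 15-month range. Mrps5, a conserved small subunit protein whose homologue in Caenorhabditis elegans is known for lengthening life when its expression is lowered, stood at 36.3, 31.9 and 32.2 CPM in 6-month mice, 38.5, 39.0 and 34.0 CPM in 15-month mice and 32.3, 29.8 and 35.3 CPM in 21-month mice. Its log2 fold change was -0.19 at 21 against 15 months (SE 0.10, unadjusted p = 0.0843, edgeR adjusted p = 1) and -0.04 at 21 against 6 months (SE 0.10, 95% interval -0.27 to 0.18), and the ages overlapped in both. Mrpl42 stood at 184, 183 and 186 CPM in 15-month mice, all 3 within 3 CPM of each other and, by a narrow margin for mouse 3, above the 21-month mice (log2 fold change -0.19, SE 0.11, unadjusted p = 0.132, edgeR adjusted p = 1).

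Over the 3 ages together, 0 of the 78 genes passed adjusted p under 0.05 in an F-test (edgeR, against 0.00% of all genes). In that test 0 had an unadjusted p under 0.05 (against 8.55%). DESeq2 called 0 of the 78 genes in a likelihood-ratio test of age, for which the share of all genes was not counted.

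**Figure D4:**
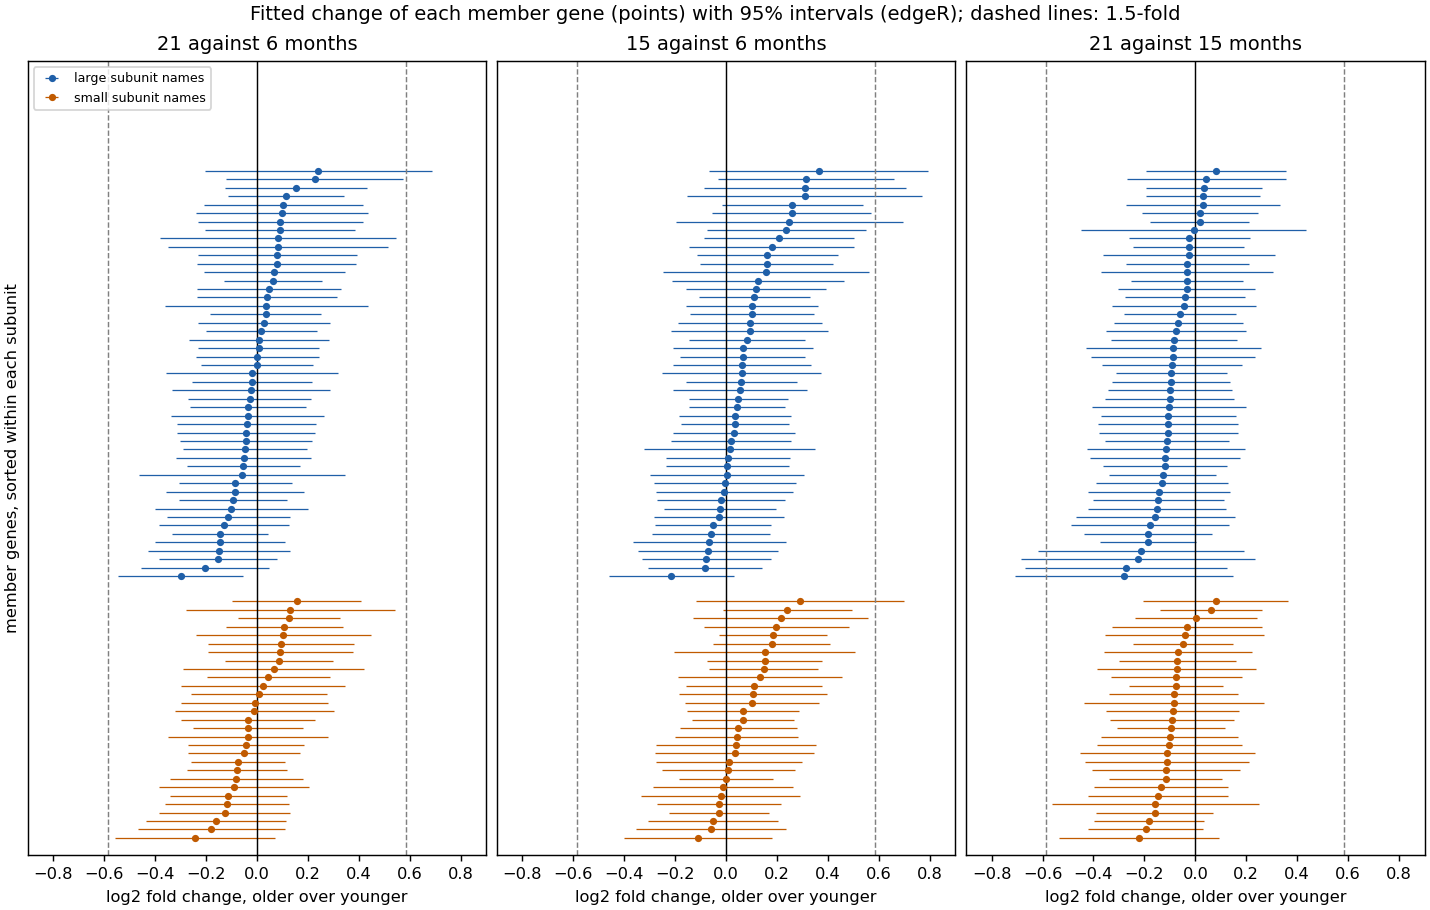
Fitted log2 fold change (horizontal axis, older over younger age) of each of the 78 genes with its 95% interval from edgeR, in 3 comparisons, large subunit names above small subunit names and sorted within each, with dashed lines at 1.5-fold. Points lie on both sides of 0 at 21 against 6 months, mostly to the right of it at 15 against 6 months (59 of 78) and mostly to the left at 21 against 15 months (68 of 78), and all intervals but 1, 6 and 4 in the same order stay within the dashed lines.

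The intervals of these differences were short. The 95% interval of the fold change lay within 1.5-fold in either direction for 77 of the 78 genes at 21 against 6 months, against 59.9% of all genes. The number was 72 at 15 against 6 months, against 59.9%, and 74 at 21 against 15 months, against 67.3%. The genes whose interval reached farther were Mrpl47 in the first comparison, Mrpl14, Mrpl19, Mrpl34, Mrpl41, Mrpl47 and Mrps35 in the second, and Mrpl12, Mrpl14, Mrpl34 and Mrpl41 in the third. The median SE of the log2 fold change at 21 against 6 months was 0.12 for the 78 genes and 0.15 for all genes. The median coefficient of variation within an age was 9.07% for the 78 genes and 12.1% for all genes, and the 78 genes were also more abundant, with a median of 33.7 against 18.7 CPM.

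The 78 genes moved together from library to library. At 21 months mouse 3 was the highest of the 3 mice in 68 of the 78 genes (87.2%, against 37.9% of all genes) and mouse 2 the lowest in 48 (61.5%, against 31.7%). At 15 months mouse 1 was the highest in 42 genes (53.8%, against 39.8% of all genes) and mouse 3 the lowest in 52 (66.7%, against 35.7%), and at 6 months mouse 3 was the lowest in 42 (53.8%, against 34.6%). Both subunits showed it, since mouse 3 at 21 months was the highest of its age in 41 of 49 large and 27 of 29 small subunit names. The size was small: the median deviation of a gene from its mean over the 9 libraries, on the scale log2(CPM + 0.5), was 0.11 in mouse 3 at 21 months, -0.09 in mouse 1 and -0.14 in mouse 2 of that age. The same deviation was 0.11, 0.09 and -0.02 in the 3 mice at 15 months and 0.01, 0.01 and -0.07 at 6 months. In all genes it lay within 0.01 of 0 in every library, but TMM scaling centres most genes, so a value near 0 was set by the scaling. Within an age the SD of this library median was 0.097 over large and 0.079 over small subunit names. The median log2 fold changes were 0.06 at 15 against 6 months and -0.09 at 21 against 15 months. That SD is one of single libraries while a fold change compares groups of 3 mice, so their sizes cannot be compared directly.

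**Figure D5:**
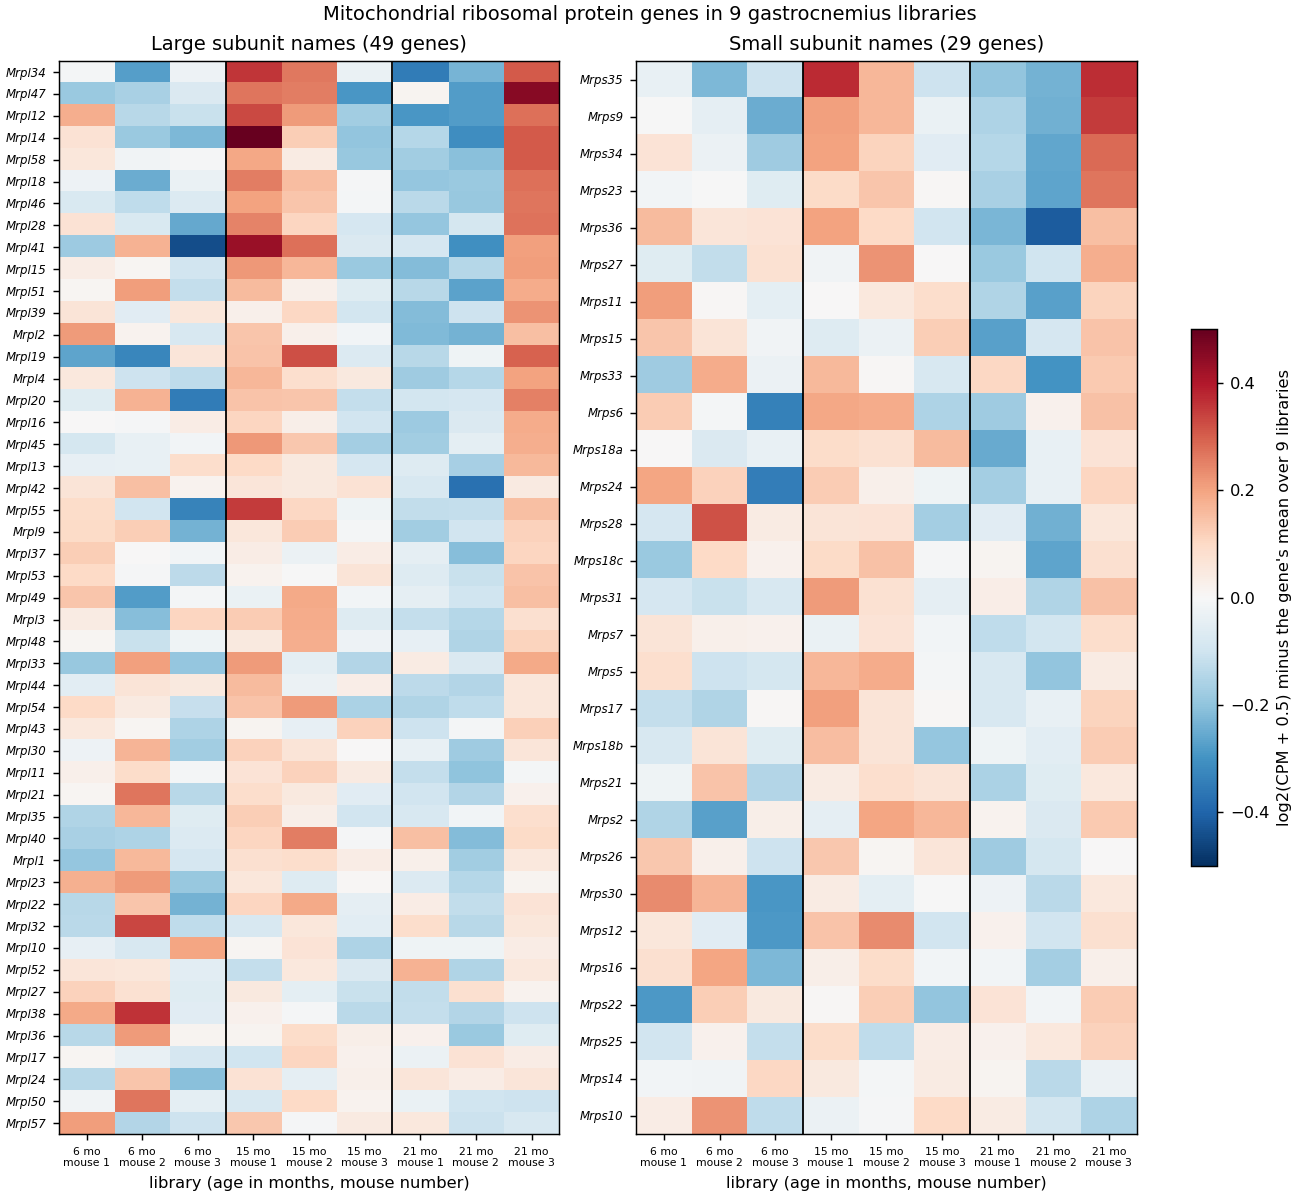
Deviation of each gene from its own mean over 9 libraries (colour, log2(CPM + 0.5)), for large subunit names on the left and small subunit names on the right, with libraries ordered by age and genes by how far mouse 3 exceeds the mean of mice 1 and 2 at 21 months. Mouse 3 at 21 months is above the gene's mean in 71 of 78 genes and mouse 2 of that age in 5.

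The respiratory chain genes had the same highest mice. Of 83 tested nuclear genes for respiratory chain subunits, mouse 3 at 21 months was the highest of its age in 83 and mouse 1 at 15 months in 82, and their summed level was 20471, 19057 and 27563 CPM in the 3 mice at 21 months. Of 80 tested cytosolic ribosomal protein genes, mouse 3 at 21 months was the highest in 38, mouse 1 in 33 and mouse 2 in 9, while mouse 1 at 15 months was the highest in 70. The slow fibre markers given above were also highest in mouse 3 at 21 months and mouse 1 at 15 months. Their part in the levels of the mitochondrial ribosomal protein genes was not tested. Without the 3 libraries that lay farthest out, the log2 fold change of the 78 genes was below 0 in 56 at 21 against 6 months (median -0.08), above 0 in 57 at 15 against 6 months (median 0.08) and below 0 in 70 at 21 against 15 months (median -0.14). In edgeR 0 of the 78 genes then passed the threshold, and of all 13060 genes tested 3, 1 and 0 did, in the same order of comparisons. At an unadjusted p under 0.05 there were then 2, 1 and 7 of the 78 genes, against 12.2%, 11.1% and 6.91% of all genes.

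Single genes spread from the most even to the most variable, and the 6 named here were picked after their values were seen. Mrpl17, Mrps7 and Mrps14 were the most even, with a ratio of the highest to the lowest library of 1.16, 1.16 and 1.18, against a median of 1.34 for the 78 genes and 1.52 for all genes. Mrps7, a conserved small subunit protein, stood at 75.2, 73.2 and 73.0 CPM in 6-month mice, 70.2, 75.5 and 71.3 CPM in 15-month mice and 65.9, 67.5 and 76.6 CPM in 21-month mice. Mrpl41, Mrpl14 and Mrpl47 were the most variable, with ratios of 1.86, 1.85 and 1.70. Mrpl41, a large subunit protein specific to mitochondria, stood at 16.6, 21.3 and 13.7 CPM in 6-month mice, 25.6, 22.9 and 17.9 CPM in 15-month mice and 17.8, 15.2 and 21.8 CPM in 21-month mice. Mrpl14, a conserved protein to which the assembly factor Malsu1 binds, stood at 30.9, 25.7 and 25.1 CPM in 6-month mice, 43.6, 32.0 and 25.5 CPM in 15-month mice and 26.6, 23.6 and 36.4 CPM in 21-month mice. Mrpl47, a conserved protein with the highest log2 fold change at 21 against 6 months, stood at 16.0, 16.2 and 17.3 CPM in 6-month mice, 22.1, 21.9 and 14.8 CPM in 15-month mice and 18.4, 14.9 and 25.2 CPM in 21-month mice. In Mrpl41 and Mrpl14 the highest library was mouse 1 at 15 months, in Mrpl47 it was mouse 3 at 21 months, and in all 3 genes the ages overlapped between 21 and 6 months.

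Genes with a role beside that of a plain subunit were read singly. Mrpl12, whose protein forms the stalk and also binds the mitochondrial RNA polymerase, stood at 56.1, 56.6 and 83.3 CPM in 21-month mice and 78.0, 62.3 and 63.6 CPM in 6-month mice, with overlapping groups (log2 fold change -0.06, SE 0.18, edgeR adjusted p = 0.939). Mrpl10, which anchors the stalk, stood at 32.1, 32.0 and 33.5 CPM in 21-month mice and 31.7, 30.8 and 37.4 CPM in 6-month mice, a log2 fold change of -0.03 (SE 0.10). Within 21 months Mrpl12 was high in mouse 3 alone, while Mrpl10 was even across the 3 mice. Mrpl58, a peptidyl-tRNA hydrolase that frees stalled peptides and is built into the large subunit, stood at 19.8, 19.3 and 27.8 CPM in 21-month mice and 23.3, 22.1 and 22.3 CPM in 6-month mice (log2 fold change -0.02, SE 0.15). Mrps12 stood at 16.5, 15.2 and 17.2 CPM in 21-month mice and 17, 15.7 and 13.2 CPM in 6-month mice (log2 fold change 0.09, SE 0.13). The groups overlapped in each of these 4 genes.

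The genes with a small subunit name whose product lies elsewhere were also read on their own. Mrps30, a large subunit protein in the structure, stood at 31.2, 28.9 and 33.0 CPM in 21-month mice and 37.5, 35.8 and 25.9 CPM in 6-month mice (log2 fold change -0.09, SE 0.13). Mouse 3 was the lowest 6-month mouse, and its value lay below all 3 at 21 months. Mrps18a (chr17:46110986-46128910) is the large subunit member of a family of 3 related genes, the others being Mrps18b and Mrps18c of the small subunit. It stood at 43.2, 41.1 and 42.1 CPM in 6-month mice, 46.0, 45.5 and 48.3 CPM in 15-month mice and 36.1, 42.0 and 45.2 CPM in 21-month mice, with log2 fold changes of -0.18 at 21 against 15 months (SE 0.10, unadjusted p = 0.0885, edgeR adjusted p = 1) and 0.15 at 15 against 6 months (SE 0.10, edgeR adjusted p = 0.633). It was above both neighbouring ages in all 3 mice at 15 months. Per kilobase the 3 related genes were close, at 49.0, 46.6 and 39.5 CPM per kb for Mrps18a, Mrps18b and Mrps18c. Mrps18b stood at 49.3 ± 2.73, 50.8 ± 6.24 and 50.9 ± 3.51 CPM and Mrps18c at 24.8 ± 2.53, 26.6 ± 1.45 and 24.2 ± 3.03 CPM by rising age (SD, n = 3 each). Taking subunits by structure in place of name gave medians of -0.02 for 51 large and -0.01 for 26 small subunit genes at 21 against 6 months. By class of origin, the median at 21 against 6 months was -0.03 for the 46 genes classed as having a bacterial homologue. It was 0.00 for the 31 classed as specific to mitochondria, and both were near the -0.01 of all genes.

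Genes that build or serve the same ribosome were counted from lists. Of their 86 measured genes 0 passed adjusted p under 0.05 in any comparison (edgeR). Of all genes 0.0153% passed it at 21 against 6 months, 0.00767% at 15 against 6 months and 0.00% at 21 against 15 months. At an unadjusted p under 0.05 there were 7 at 21 against 6 months, 5 at 15 against 6 months and 0 at 21 against 15 months, and DESeq2 called 2 at 21 against 6 months, Mtif3 and Myc, and 0 in the other comparisons. Over all genes the shares were 10.6%, 10.3% and 1.82% at an unadjusted p under 0.05, above the 8.14% and 5.81% of these lists in the comparisons with 6 months. For DESeq2 at 21 against 6 months the share of all genes was 1.41%, beside 2.33% of these lists. DESeq2 called 0.791% of all genes at 15 against 6 months and 0.0174% at 21 against 15 months. The 5 ribosomal proteins with other symbols had a median log2 fold change of 0.07 at 21 against 6 months, with Gadd45gip1 at 0.14 and Chchd1 at -0.14. The 26 assembly factors had medians of 0.02 at 21 against 6 months, 0.08 at 15 against 6 months (20 of 26 above 0) and -0.06 at 21 against 15 months (20 of 26 below 0). Among them the ribosomal RNA methyltransferases Mrm3 and Mrm1 had the smallest p-values at 21 against 6 months, with log2 fold changes of 0.36 (edgeR adjusted p = 0.387) and 0.46 (edgeR adjusted p = 0.430). The 16 measured translation factors had medians of 0.02, 0.09 and -0.07 in the same order of comparisons. Mtif3, an initiation factor, stood at 25.2, 26.5 and 27.8 CPM in 21-month mice and 18.7, 17.7 and 21.7 CPM in 6-month mice. Every 21-month mouse was above every 6-month mouse, and its log2 fold change of 0.45 (SE 0.10, edgeR adjusted p = 0.145) did not pass the threshold, while DESeq2 gave an adjusted p of 0.0467. Tsfm, an elongation factor, had a log2 fold change of 0.29 (edgeR adjusted p = 0.473).

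The 20 mitochondrial aminoacyl-tRNA synthetases and related enzymes had medians of -0.01, 0.04 and -0.08, with Iars2 at -0.22 and Gatb at -0.22 at 21 against 6 months. The 10 genes of mitochondrial DNA transcription and upkeep had medians of 0.04, -0.01 and 0.04, with Mterf1a at 0.69 from a low level and Mgme1 at -0.15. The 9 regulators of nuclear mitochondrial genes had medians of 0.10, 0.09 and 0.03. Myc, which drives ribosome production in many cells, stood at 8.11, 8.59 and 7.53 CPM in 21-month mice and 4.84, 4.13 and 4.78 CPM in 6-month mice, a log2 fold change of 0.82 (SE 0.15, edgeR adjusted p = 0.0796) that did not pass the threshold in edgeR. The groups did not overlap, and DESeq2 gave an adjusted p of 0.00971. Yy1 stood at 78.1, 77.3 and 67.3 CPM in 21-month mice and 88.2, 105 and 80.8 CPM in 6-month mice (log2 fold change -0.30, edgeR adjusted p = 0.431). For comparison, the medians of the 80 cytosolic ribosomal protein genes were -0.07, 0.00 and -0.07 and those of the 83 respiratory chain genes -0.02, 0.16 and -0.17, beside -0.02, 0.06 and -0.09 for the 78 mitochondrial ribosomal protein genes. Each of these comparisons shares mice with another, and the values stand side by side with no test between lists.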

How the data were processed

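RNA of gastrocnemius was measured in 9 libraries, 3 mice at each of 6, 15 and 21 months. The table of the authors gives an estimated count per gene in every library, as deposited, and between 90.0 and 90.7% of the values of a library were whole within 0.005. Per the submitters' processing notes, reads were placed on mm10. The aligner, counter, annotation and strand setting: not given in the sources used here. Per the labels' protocols, messenger RNA was enriched on oligo(dT) beads, which makes counts depend on RNA integrity.

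Estimated counts were rounded, filtered with filterByExpr (minimum count 10, leaving 13044 genes) and scaled with TMM factors (0.923 to 1.05). Age was the factor in edgeR's quasi-likelihood fit (edgeR 4.0.16 in R 4.3.3) of all genes in the 9 libraries together (6 residual and 4.24 prior degrees of freedom). Benjamini-Hochberg adjustment ran over the whole tested table, and calls needed an adjusted p under 0.05. Fold changes are older over younger. Beyond the separate mice of the design text, nothing says how the libraries were batched. The procedure was tested on simulated data. Alternatives were DESeq2 1.42.0, RLE and total count scaling, no filter, a filter of 5 CPM in 3 libraries, only the 2 ages compared, the replicate number as a block, and leaving out each library or the 3 outlying ones.

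The genes and lists were chosen with earlier results of these data known. Named genes were the 4 smallest p-values of each comparison, the 4 highest and 1 lowest of each subunit per kilobase, 7 genes with a particular role, and for other lists the 2 smallest p-values at 21 against 6 months; further genes named in the text were chosen after their values were seen. Lengths come from the longest principal transcript in GENCODE release M21. The lowest count of any of the 78 genes in a library was 153, and for the lowest genes counting error is part of the spread between mice.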

Additional observations from a re-analysis of the deposited data

How the results depend on the processing

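In all 17 alternatives per comparison, and 16 for the test over the 3 ages, 0 of the 78 genes passed the threshold. Of all values recomputed, 459 differed from the reported value by less than the criterion, 32 by more, and 0 of the single genes with the smallest p-values changed sign. The criterion was the SD between mice of an age for a median, 1.5 times for a count, and the side of the threshold for a single gene. That SD was near or above the size of the reported medians, so a median could change sign within the criterion. The single genes lay far from the threshold, with adjusted p of 0.370 or more in edgeR as reported. The number 459 is therefore no measure of how firm the results are. The median over small subunit names at 21 against 6 months moved to 0.051 with total count scaling, against -0.03 as reported; the median of all genes moved with it, to 0.07. Leaving out 1 library at a time, the median over large subunit names ran from -0.09 to 0.04 at 21 against 6 months, from 0.03 to 0.10 at 15 against 6 months and from -0.17 to -0.03 at 21 against 15 months, and over small subunit names from -0.11 to 0.04, from 0.02 to 0.11 and from -0.15 to -0.04. The sign of the median over the 78 genes at 21 against 6 months, -0.02 as reported, rested on single libraries: omitting mouse 1 or mouse 2 of the 21-month group gave 0.04, omitting mouse 1 or mouse 2 of the 6-month group gave 0.00, and omitting mouse 3 of the 21-month group gave -0.10. In each subunit that median had the other sign in 4 of 17 alternatives: total count scaling, and leaving out 21-month mouse 1, 21-month mouse 2, or 6-month mouse 1 (large) or 2 (small). In the other comparisons it had the other sign in 0 of 17. The number of the 78 genes at an unadjusted p under 0.05 ran from 0 to 5 at 21 against 6 months (5 without mouse 3 at 21 months, 6.41% against 9.94% of all genes; 4 without mouse 3 at 6 months, 5.13% against 13.6%). At 15 against 6 months it ran from 0 to 5 (5 with total count scaling, 6.41% against 11.2%, and 4 without mouse 3 at 6 months or at 15 months, 5.13% against 13.4% and 10.8%). At 21 against 15 months it ran from 0 to 15 (15 without mouse 3 at 21 months, 19.2% against 5.40%). Over all genes edgeR called from 0 to 42 at 21 against 6 months (42 without mouse 3 at 6 months) and from 0 to 10 at 15 against 6 months, while DESeq2 called 196, 110 and 3 in the 3 comparisons. The log2 fold change of Mrpl38 at 21 against 6 months stayed between -0.40 and -0.20. Samples with the same replicate number did not consistently deviate together (correlations from -0.42 to 0.41). The labels state no pairing, and with 3 mice per age these correlations cannot settle whether the numbers mark a shared litter or batch. With the replicate block 0 of the 78 genes were called, and over all genes 5, 0 and 0 calls were made. With 3 mice per age, a median SE of 0.12 (log2) at 21 against 6 months limits what can be said of single genes. For the medians the spread between mice of an age, in the median deviation of a library, was 0.097 (large) and 0.079 (small subunit names, SD, log2).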
